A study of Mus musculus with 38 samples.

Results

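Footprints of translating ribosomes were described for the protocadherins, the largest group of the cadherin family of cell adhesion proteins. The members were all protein-coding genes whose symbol starts with Pcdh, 69 of the 22401 genes with a coding sequence (CDS) in the files. Of these, 14 belong to the alpha, 22 to the beta and 21 to the gamma cluster on mouse chromosome 18, and 12 lie outside the clusters. In the alpha and gamma clusters each gene contributes a long variable first exon, which is spliced to exons shared by the whole cluster, so only the variable first CDS segment was counted for a gene, and the shared constant segments of a cluster were counted once, as an entry of their own. The beta genes have no constant exon.

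Protocadherins are transmembrane proteins whose extracellular cadherin repeats bind the same isoform on a neighbouring cell. The variable exons of the clusters are chosen largely at random in single neurons, with CTCF and cohesin at the chosen promoters, whereas the C-type exons Pcdhac1, Pcdhac2, Pcdhgc3, Pcdhgc4 and Pcdhgc5 are chosen by other means, and the resulting combinations let a neuron tell its own dendrites from those of others. Most non-clustered members belong to the delta group, which acts in the sorting of cells, the growth of axons and the formation of synapses.

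The footprints came from primary cortical neurons of CD-1 mouse embryos and were measured by PL-Ribo-seq, in which a biotin ligase labels proteins near it and streptavidin pulls down the labelled ribosome complexes. In TurboID-PSD95, sequence of the PSD95 transcript takes the ligase into dendrites, whereas Pan-TurboID lacks any localization signal, and a lentivirus expressed either one. Footprints were sequenced from each sample before (input) and after the streptavidin step (pulldown). The labels give cycloheximide for 2 min and biotin for 30 min in all 14 groups, whereas the methods of the study give a shorter biotin time for DHPG. Of the 38 libraries, 24 were inputs and pulldowns of both baits, with 3 replicates per group, from resting neurons and from neurons depolarized with 55 mM KCl for 1 h. A further 6 were TurboID-PSD95 inputs and pulldowns, 3 of each, from neurons given 100 µM DHPG for 10 min, which activates metabotropic glutamate receptors of group I. The other 8 were TurboID-PSD95 inputs and pulldowns, 2 per group, from resting and depolarized neurons given 20 nM siRNA against eIF4G2, a translation initiation factor, for 72 h. The labels place tetrodotoxin and DL-AP5, which silence activity, for 2 h before KCl or DHPG, and do not give them for resting neurons. Some label descriptions call the DHPG inputs and the knockdown libraries cytosolic, while their virus field gives the PSD95 bait, which was used here. The study calls its PL-Ribo-seq replicates biological. For the knockdown, with 2 libraries per group, no source used here says whether these came from separate cultures, so its p-values measure the spread between these samples, which may be technical.

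The libraries held 2048604 to 14646402 counts on the transcripts used. Of these, 8568 to 79132 fell on the protocadherin genes as counted, without the constant segments, and shares of protocadherins below are meant likewise. Levels are given as counts scaled to library size and per kb of counted sequence (CPM per kb), which allows genes to be compared, and changes as log2 fold changes from edgeR's quasi-likelihood test over all genes, with the standard error (SE) and the Benjamini-Hochberg false discovery rate (FDR), called at an FDR under 0.05. Markers of neurons were high in every group and highest with DHPG, where they summed to 7306 to 7470 CPM per kb in inputs and 6831 to 6892 in pulldowns, against 3512 to 5785 in the other groups. Astrocyte markers summed to 151 to 201 CPM per kb with DHPG against 395 to 945 elsewhere, while microglial markers were not lower with DHPG. These were highest in the knockdown, at up to 27.7 CPM per kb against at most 8.22 elsewhere. In such bulk samples fewer cells of a type and less RNA per cell cannot be told apart. Replicate 1 of the depolarized inputs stood above the other replicates for many members. Protocadherins held 0.764% and 0.687% of counts in its Pan-TurboID and TurboID-PSD95 inputs, and 0.519% and 0.459% in those of resting replicate 1. These were the highest shares of the depolarized and the lowest of the resting input groups. Results that rest on replicate 1 are given with and without it, where it is left out of every group.

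By the mean over all inputs the non-clustered members Pcdh8 and Pcdh1 stood highest, though the order differed between groups. Pcdh8 (chromosome 14, 79767371 to 79771121, mm10), also known as arcadlin, which acts in the removal of N-cadherin from synapses, had a mean of 202.5 ± 80.0 CPM per kb (SD, n = 19 inputs). Pcdh1, a delta-1 member that is also prominent in epithelia, had a mean of 147.7 ± 34.7 CPM per kb, over the 1083 nt of CDS in the transcript counted. This was 1 of 6 coding transcripts of Pcdh1, and another held the highest count. Its CDS was the shortest counted among the non-clustered members, which limits the comparison of its level with theirs. Pcdh10 (102 ± 30.4), a delta-2 member that acts in the growth of striatal axons, the C-type isoform Pcdhgc4 (99.8 ± 16.5), which neurons need to survive, and Pcdh7 (92.2 ± 18.9), a delta-1 member, followed. The ranges of these 3 overlapped, from 60.0 to 159.7, from 77.4 to 142.6 and from 71.0 to 140.3 CPM per kb. In the 6 untreated resting inputs Pcdh10, at 89.3 to 159.7 CPM per kb, overlapped Pcdh1, at 102 to 137, and Pcdh8, at 112 to 224. Pcdh8 lay highest in the knockdown inputs, at 308 to 368 CPM per kb.

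Among the clustered genes Pcdhgc4 was followed by Pcdhgc3 (73.4 ± 20.7 CPM per kb) and Pcdha12 (72.5 ± 15.5), whose ranges overlapped almost completely. The medians over the genes of a cluster were 25.8 CPM per kb for alpha, 14.02 for beta and 24.7 for gamma, and the highest beta gene, Pcdhb9, had a mean of 21.4 ± 7.08 CPM per kb. At the low end stood Pcdh15, a part of the tip link of hair cells, with 2.53 ± 1.37 CPM per kb, Pcdhac1 with 1.82 ± 1.23, Pcdhb1 with 0.535 ± 0.388, and Pcdh12, a protocadherin of endothelial cells, whose highest value in any input was 0.352. Of the protocadherin counts without the constant segments, clustered genes together held 59.2%, 16.6% alpha, 13.5% beta and 29.2% gamma. Near-identical stretches limit how well reads can be assigned: the share of 28-nt windows of the variable segment that occur once in the chromosomes ran from 57.8% (Pcdha7) to 100% in the alpha, from 65.7% (Pcdhb11) to 100% in the beta and from 72.8% to 100% in the gamma cluster, and was at least 99.6% in the non-clustered genes. How the authors treated reads that align in several places is not stated. Pcdha4, Pcdha6 and Pcdha7 also overlap predicted genes.

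**Figure D1:**
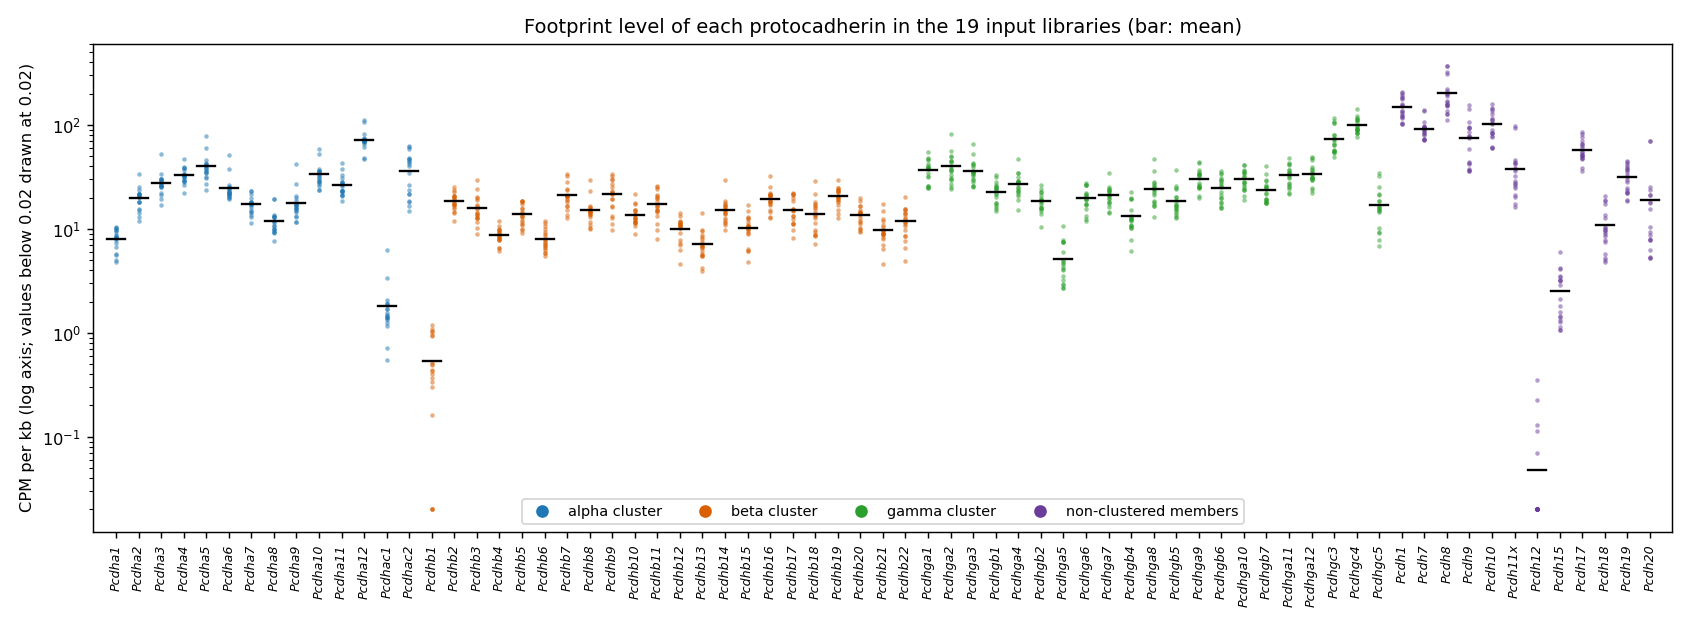
Level of each protocadherin in the 19 input libraries, in CPM per kb on a log axis, with clustered genes in the order of their position and the others by number; points are libraries and bars are means. Pcdh8 and Pcdh1 have the highest means, C-type Pcdhgc3 and Pcdhgc4 stand above the other gamma genes, and Pcdhac1, Pcdhb1, Pcdh12 and Pcdh15 lie lowest.

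The first comparison asked how depolarization changed footprint counts in whole neurons, relative to the other genes of a library. It set the 6 depolarized inputs of both baits against the 6 resting ones. Both baits share the same 3 replicate numbers in a condition, yet the test took all 6 libraries as independent, so its SEs may be too small. No RNA level was set beside the counts, so RNA amount and ribosomes per RNA cannot be told apart. Of the 67 members that passed the filter on low counts, 2 fell and 10 rose, 2.99% and 14.9%, beside 9.02% and 6.4% of all genes tested. Pcdh20 and Pcdhac2 fell, and Pcdhb9 rose most.

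Pcdh20 (chromosome 14, 88467004 to 88470990, mm10) is a non-clustered member. In resting inputs it measured 21.4, 18.2 and 17.8 CPM per kb with TurboID-PSD95 and 25.5, 23.7 and 21.0 with Pan-TurboID, and in depolarized inputs 7.78, 5.196 and 7.99 and 6.24, 5.40 and 5.19. All depolarized libraries lay below all resting ones. The log2 fold change was −1.79 (SE 0.176, FDR 3.92e-08). The fall was as large in pulldowns, −1.60 (SE 0.246, FDR 0.000169) for TurboID-PSD95 and −1.91 (SE 0.245, FDR 1.11e-05) for Pan-TurboID. In the knockdown experiment, whose libraries are separate from these, Pcdh20 measured 69.6 and 70.3 CPM per kb in resting inputs and 10.4 and 15.4 in depolarized ones. The change there was −2.46 (SE 0.165, FDR 5.32e-11) in inputs and −2.35 (SE 0.185, FDR 7.09e-10) in pulldowns. Without replicate 1, 2 or 3, the change in untreated inputs ranged from −1.89 to −1.66 and the FDR stayed below 0.05.

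Pcdhac2, the C-type isoform that serotonergic axons use to spread out over their targets, was the only clustered member that fell in the inputs. It measured 34.3, 48.5 and 46.9 CPM per kb in resting TurboID-PSD95 inputs and 39.9, 46.7 and 42.2 in resting Pan-TurboID inputs, against 16.5, 14.97 and 21.6 and 26.7, 18.8 and 18.0 after KCl. The groups did not overlap, and the log2 fold change was −1.18 (SE 0.164, FDR 1.08e-05). In pulldowns the change was −1.16 (SE 0.233, FDR 0.00247) for TurboID-PSD95 and −0.96 (SE 0.229, FDR 0.0131) for Pan-TurboID. In the knockdown it was −0.97 (SE 0.163, FDR 8.95e-05) in inputs, from 45.2 and 44.5 to 21.8 and 23.5 CPM per kb, and −0.63 (SE 0.183, FDR 0.0151) in pulldowns. Both pulldown calls of untreated neurons were lost without replicate 2 (FDR 0.0889 and 0.185) and without replicate 3 (FDR 0.0933 and 0.317), while the call in inputs was not lost with any replicate left out. In the knockdown pulldowns the call was lost without replicate 2 at rest (FDR 0.0730) and without replicate 1 after KCl (FDR 0.0966). When the constant segments, which all alpha isoforms share, were counted with it, the change in untreated inputs shrank to −0.38 (FDR 0.143).

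With this fall the make-up of the alpha cluster differed. Pcdhac2 made up 12.6% to 15.3% of the variable-segment counts of the cluster in resting inputs and 3.53% to 6.74% in depolarized ones. In the knockdown inputs its share went from 13.2% and 13.3% to 6.81% and 7.02%. After DHPG it stayed at 15.2% to 16.3% in inputs. The other C-type alpha exon, Pcdhac1, was low throughout, with 0.548 to 6.31 CPM per kb in inputs. In the gamma cluster the C-type share was 31.2% to 34.4% in resting and 28.2% to 29.2% in depolarized TurboID-PSD95 inputs, without overlap, and 28.2% to 34.8% and 25.9% to 32.4% in Pan-TurboID inputs, with overlap. In pulldowns it was 27.97% to 33.2% and 21.7% to 27.2% for TurboID-PSD95, without overlap, and 29.4% to 32.7% and 23.5% to 29.6% for Pan-TurboID, with overlap. In knockdown inputs the gamma C-type share was 29.2% to 30.2% at rest and 27.0% to 27.1% after KCl. In knockdown pulldowns it was 26.2% to 27.1% at rest and higher after KCl, 27.8% to 28.4%. After DHPG it was 27.4% to 27.8% in inputs and 25.2% to 26.4% in pulldowns.

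Pcdhb9 was the member with the clearest rise. It measured 12.6, 9.85 and 16.2 CPM per kb in resting TurboID-PSD95 inputs, 13.2, 11.1 and 16.5 in resting Pan-TurboID inputs, and 27.0, 23.3 and 21.7 and 33.7, 25.1 and 22.1 after KCl, with no overlap. The log2 fold change was 0.91 (SE 0.162, FDR 0.000271) in inputs, 1.21 (SE 0.233, FDR 0.00166) in TurboID-PSD95 pulldowns and 1.07 (SE 0.226, FDR 0.00471) in Pan-TurboID pulldowns. In the knockdown it was 0.74 (SE 0.215, FDR 0.0143) in pulldowns, and in inputs, where Pcdhb9 measured 19.4 and 19.6 at rest and 21.5 and 22.8 after KCl, it was not called. The call in TurboID-PSD95 pulldowns was lost without replicate 3 (FDR 0.0766), and that in Pan-TurboID pulldowns with any replicate left out (FDR 0.0628 to 0.0705). In the knockdown pulldowns it was lost without replicate 1 of either group (FDR 0.0981 and 0.144).

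The other members that rose in untreated inputs were Pcdhga8 (log2 fold change 0.71, SE 0.18, FDR 0.00778), Pcdha9 (0.71), Pcdhb15 (0.75), Pcdhga2 (0.66), Pcdha3 (0.58), Pcdhgb6 (0.56), Pcdhga9 (0.51), Pcdh1 (0.50, SE 0.151, FDR 0.0236) and Pcdha12 (0.48). Pcdh1 lay between 102 and 137 CPM per kb at rest and between 151 and 201 after KCl, without overlap. Of the 21 beta genes tested, all 21 had a log2 fold change above 0, with a median of 0.38, as had 18 of 21 gamma (median 0.24) and 11 of 14 alpha genes (median 0.42), against 49.2% of all genes (median −0.01) and 4 of 11 non-clustered members (median −0.16). In untreated inputs this tilt shrank without replicate 1. There 7 of 14 alpha, 16 of 22 beta and 10 of 21 gamma genes were above 0, with medians of 0.01, 0.10 and −0.03. Of all genes, 6651 of 12969 were above 0 (median 0.02). In knockdown inputs 9 of 14 alpha, 20 of 22 beta and 17 of 21 gamma genes were above 0, beside 51.4% of all genes. Their medians were 0.13, 0.19 and 0.24. With all replicates, untreated TurboID-PSD95 pulldowns had 12 of 14, 20 of 21 and 17 of 21 above 0, beside 51.5%. Pan-TurboID pulldowns had 13 of 14, 21 of 21 and 19 of 21, beside 52.3%. In untreated inputs without replicate 1, Pcdhb9 (0.75, FDR 0.0101) and Pcdh1 (0.50, FDR 0.0343) were the members called higher. The 7 called lower were Pcdh10, Pcdh15, Pcdh17, Pcdh18, Pcdh19, Pcdh20 and Pcdhac2. Of all genes 6.54% were called higher and 9.77% lower. Without replicate 2, 3 rose and 2 fell, beside 3.31% and 3.69%, and without replicate 3, 5 rose and 2 fell, beside 1.14% and 2.96%. Pcdh1 was not among them (FDR 0.138 and 0.125). In the KCl response of untreated inputs 2 of 8 neuron markers were lower (median −0.05), and 0 were called among 9 astrocyte (median −0.18), 7 oligodendrocyte (median −1.03), 5 fibroblast (median −0.70) and 6 progenitor markers (median −0.66) in edgeR's test. What part these markers had in the values of the members was not tested.

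**Figure D2:**
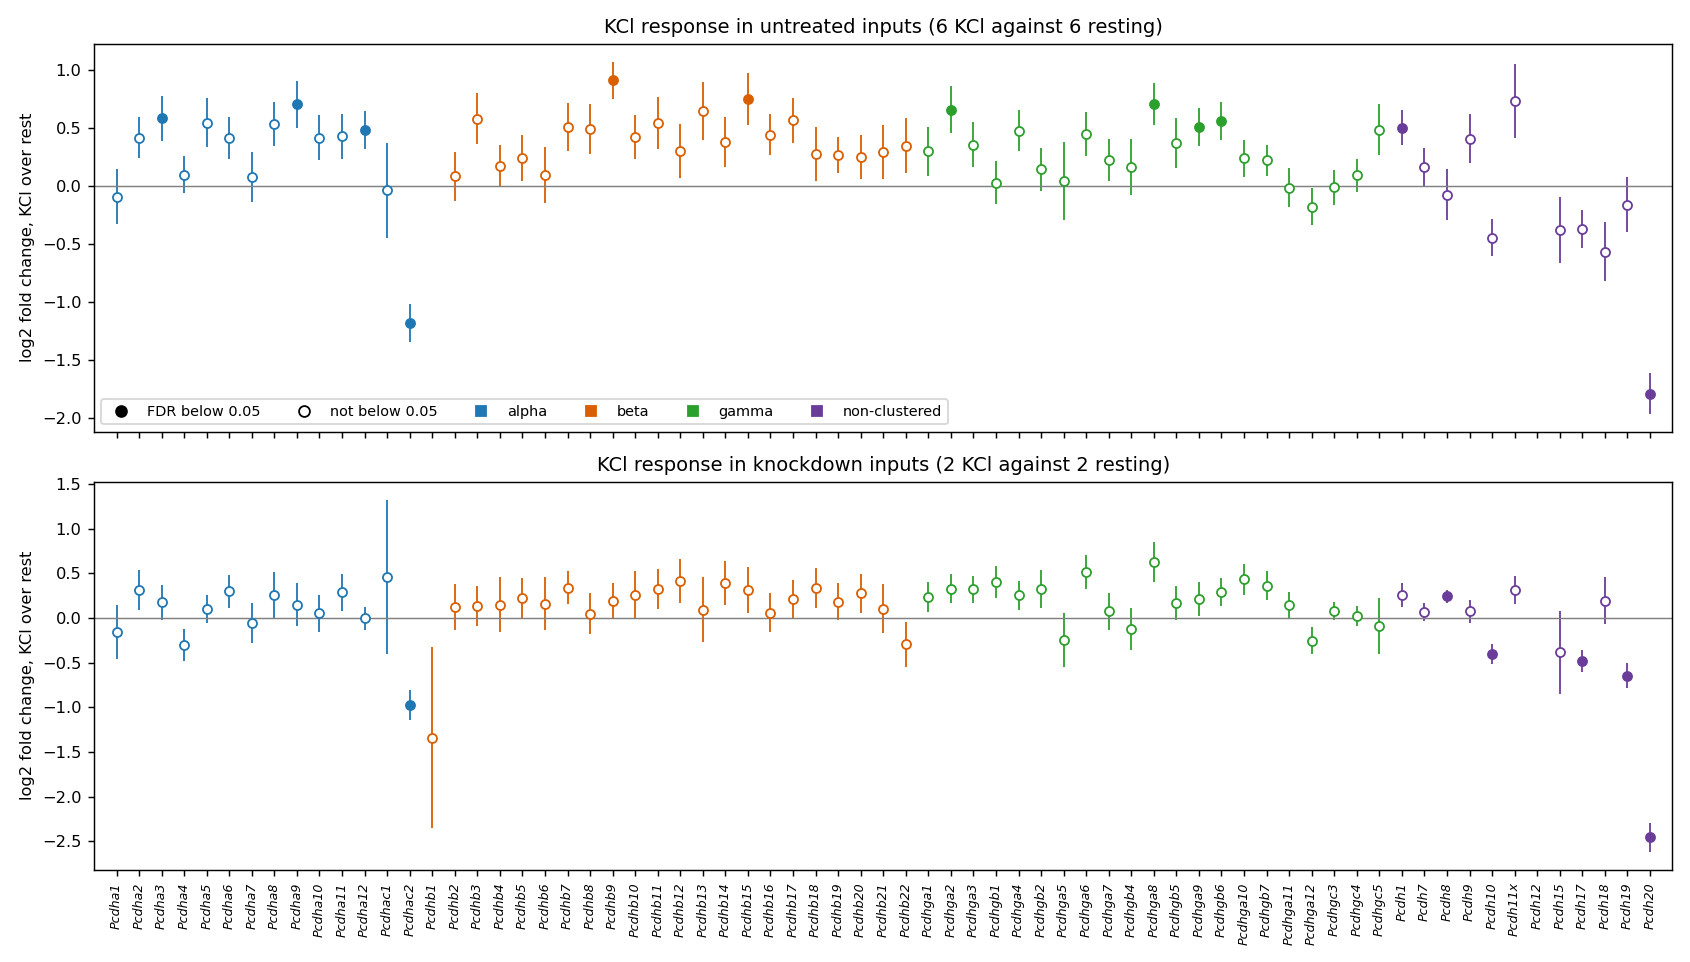
Log2 fold change of each protocadherin after KCl, with its SE, in untreated inputs (top) and knockdown inputs (bottom); filled symbols have an FDR below 0.05. Pcdh20 and Pcdhac2 lie far below 0 in both panels, and in the knockdown Pcdh10, Pcdh17 and Pcdh19 are also called lower.

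In pulldowns, TurboID-PSD95 libraries gave 2 rises, Pcdhb9 and Pcdhga8 (0.90, SE 0.258, FDR 0.0343), and the 2 falls of Pcdh20 and Pcdhac2, beside 3.28% and 3.35% of all genes. Pan-TurboID libraries gave 3 rises, Pcdhb9, Pcdhgb7 (0.88, SE 0.194, FDR 0.00699) and Pcdhb17 (1.01, SE 0.276, FDR 0.0287), and the same 2 falls, beside 1.86% and 3.19%. Pcdhga8 and Pcdhb17 were not called with any replicate left out (FDR 0.0651 to 0.289 and 0.149 to 0.173), and Pcdhgb7 was called only without replicate 2 (FDR 0.0337).

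Under the knockdown the targeted gene was checked before the members. Eif4g2 measured 99.8 and 99.4 CPM per kb in resting and 118 and 113 in depolarized knockdown inputs, against 188, 199 and 202 and 213, 187 and 270 in untreated TurboID-PSD95 inputs. The groups did not overlap, with changes of −0.96 (SE 0.188, FDR 0.00431) at rest and −0.91 (SE 0.189, FDR 0.00578) after KCl. Knockdown and untreated libraries come from different experiments, so experiment and knockdown cannot be told apart, and siRNA controls were not analysed here.

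The KCl response of the knockdown inputs had 1 rise and 5 falls among 68 members, beside 8.7% and 10.4% of all genes. Besides Pcdh20 and Pcdhac2, the delta-2 members Pcdh19, Pcdh17 and Pcdh10 fell. Pcdh19, the X-linked gene of a female-limited epilepsy, went from 36.7 and 37.5 to 24.7 and 22.0 CPM per kb (−0.64, SE 0.142, FDR 0.00178). Pcdh17, which acts at synapses of the basal ganglia, went from 54.8 and 49.9 to 35.99 and 38.2 (−0.48, SE 0.126, FDR 0.00718). Pcdh10 went from 105 and 113 to 79.2 and 84.2 (−0.40, SE 0.108, FDR 0.00969). Each of these had non-overlapping groups. Pcdh8 rose from 320 and 308 to 368 and 367 CPM per kb (0.24, SE 0.0758, FDR 0.0244), whereas in untreated inputs its groups overlapped and its change was −0.07. Without replicate 1 of the depolarized inputs the calls of Pcdh17 (FDR 0.0867), Pcdh10 (0.114) and Pcdh8 (0.134) were lost. Among the resting inputs, that of Pcdh17 was lost without replicate 1 (FDR 0.147) and that of Pcdh10 without replicate 2 (FDR 0.160), and that of Pcdh8 was lost when any of the 4 inputs was left out (FDR up to 0.285). For no member did the change of the knockdown inputs differ from that of the untreated TurboID-PSD95 inputs in edgeR's interaction test. Of all genes 0.00758% were called higher and 0 lower, and DESeq2 called 0 members. In edgeR's test 2 members had an unadjusted p under 0.05, beside 365 of 13194 genes. The interaction value was −0.96 for Pcdh20, 0.34 for Pcdh8 and −0.40 for Pcdh19. Markers moved in the KCl response of the knockdown inputs as well, with 4 of 9 astrocyte (median 0.46), 2 of 5 progenitor (median 0.18) and 1 of 4 fibroblast markers (median 0.67) higher and 3 of 8 neuron markers lower (median −0.10). Their part in the values of the members was not tested.

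In knockdown pulldowns KCl raised 17 and lowered 4 of 68 members, beside 10.2% and 12% of all genes, and the median was 0.44. Of the 17, 11 belonged to the gamma cluster, among them Pcdhgc3 (0.65, SE 0.109, FDR 8.67e-05), which went from 65.3 and 63.9 to 102 and 104 CPM per kb, and Pcdhga1 (1.07, SE 0.193, FDR 0.000177). The largest called change among the beta genes was that of Pcdhb20 (1.18, SE 0.242, FDR 0.000711). Pcdhgc3 did not overlap between the pulldown groups, while in inputs of the same experiment it measured 109 and 103 at rest and 117 and 104 after KCl, with overlap. Without replicate 2 of the resting pulldowns 10 members rose and 1 fell, beside 7.48% and 9.21% of all genes, and without replicate 1 of the depolarized pulldowns 8 rose and 2 fell, beside 7.62% and 10.2%. In the same comparison 4 of 9 astrocyte markers were higher and 1 lower (median 0.57), 2 of 5 progenitor markers were higher (median 0.30), 2 of 7 oligodendrocyte (median −0.34), 1 of 3 microglial (median −0.33) and 1 of 8 neuron markers (median −0.01) were lower, and 0 of 4 fibroblast markers were called (median 1.16). Their part in the rises of the members was not tested.

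At rest Pcdh20 was higher in knockdown than in untreated inputs by a log2 fold change of 1.89 (SE 0.25, FDR 0.000114), the only member called higher, with 0 called lower, beside 2.01% and 1.86% of all genes. After KCl, 6 members were higher and 2 lower, beside 3% and 2.13% of all genes. Pcdh8 was higher (1.36, SE 0.323, FDR 0.016), as were Pcdhgc3 (0.83, SE 0.212, FDR 0.0211), Pcdhgb7 (0.82, SE 0.202, FDR 0.0165) and Pcdh20 (0.92, SE 0.272, FDR 0.0485), while Pcdh9 (−1.25, SE 0.31, FDR 0.0191), a delta-1 member, and Pcdhgc5 (−1.40, SE 0.415, FDR 0.0489) were lower. Leaving replicate number 1 or 2 out of all groups left 1 knockdown library per group, so the spread then came from untreated libraries alone. The call of Pcdh20 at rest was lost without replicate 2, with a log2 fold change of 1.84. After KCl the calls were likewise lost without replicate 1 or 2. Without replicate 3, which left both knockdown libraries per group, 4 members were higher and 2 lower, beside 3.44% and 1.49% of all genes. Markers of other cell types also differed at rest, with medians of 3.20 over the 3 microglial markers tested, −2.596 over 5 fibroblast, −0.98 over 7 oligodendrocyte, −0.83 over 6 progenitor and −0.04 over 9 astrocyte markers, of which 0, 1, 1, 0 and 1 were called, all lower. Of 8 neuron markers 2 were lower (median −0.47). After KCl the medians were 3.64, −1.83, 0.38, 0.79 and 0.70 in the same order, and −0.65 for neurons. Their part in the differences of the members was not tested.

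**Figure D3:**
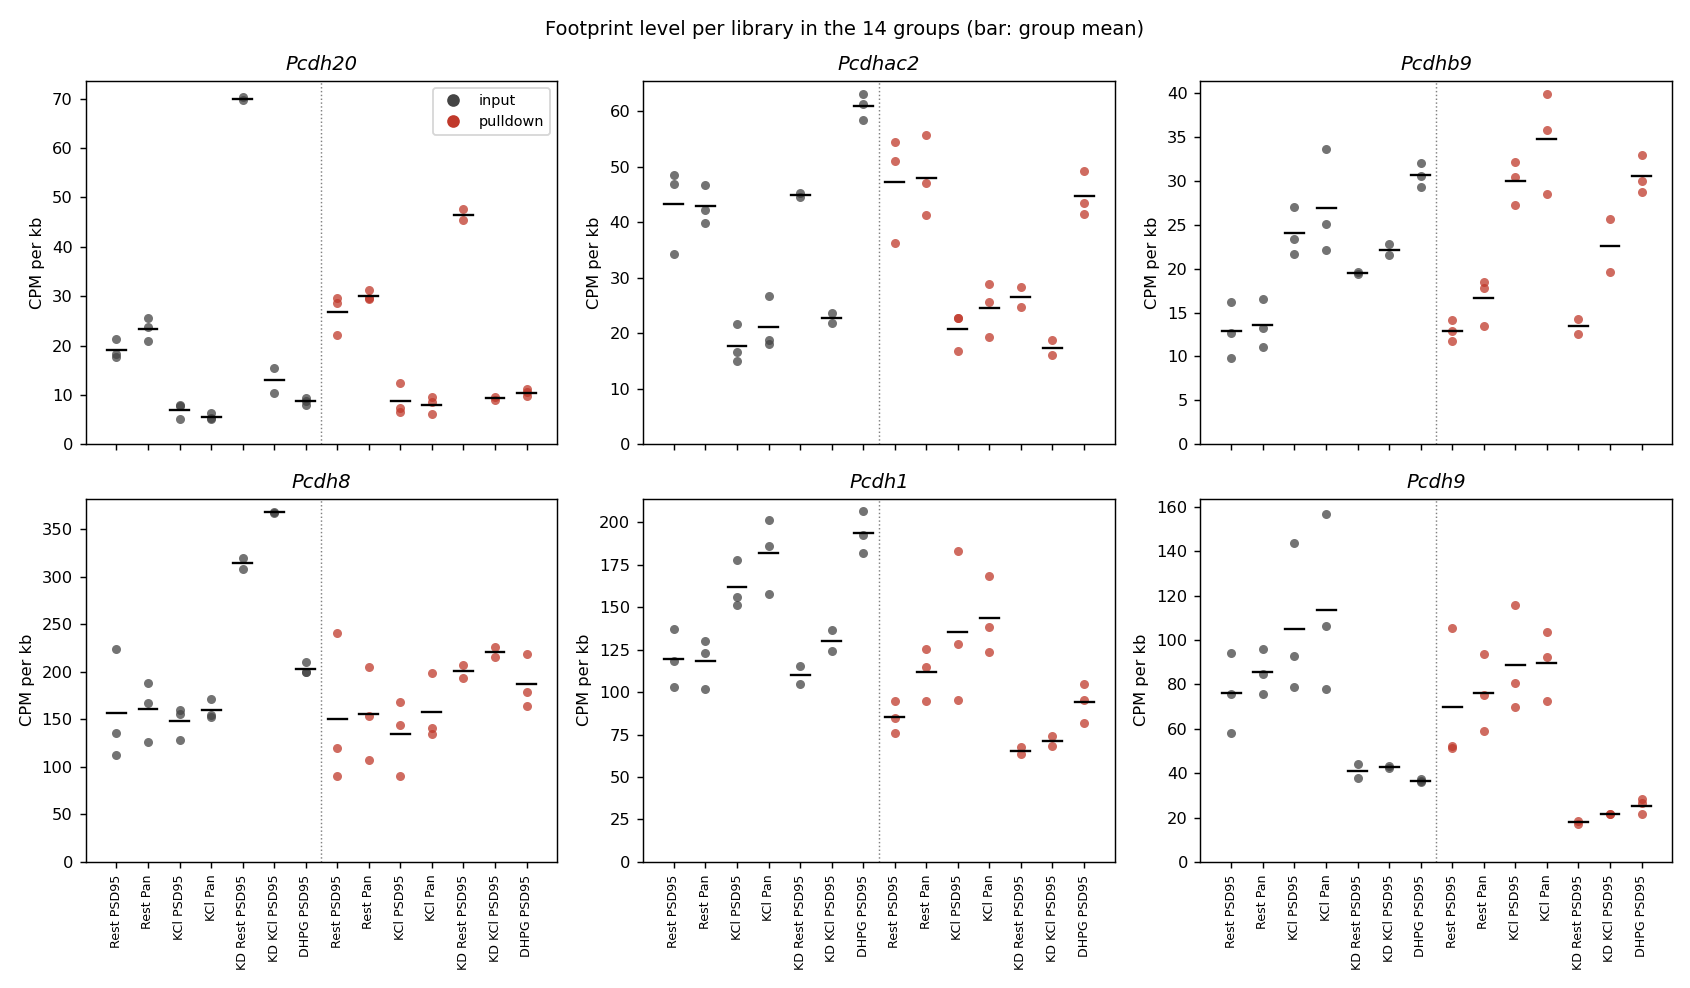
Level of 6 protocadherins in each library of the 14 groups, in CPM per kb, with inputs on the left (grey) and pulldowns on the right (red) of the dotted line; bars are group means and KD stands for knockdown. Pcdh20 is low after KCl and DHPG and highest in resting knockdown inputs, Pcdhac2 is lower after KCl than at rest, and Pcdhb9 is high after KCl and DHPG.

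The second question was whether dendritic pulldowns held more or less of the protocadherins than inputs. Dlg4, the gene of PSD95 whose sequence the bait carries, stood 4.48 log2 units above inputs at rest (SE 0.525, FDR 0.000154). Footprints on the bait's own transcript may be counted in Dlg4, and the Pan-TurboID inputs lack that bait. Expression of the bait and an effect of the pulldown cannot be told apart in this value. In the resting dendritic comparison, TurboID-PSD95 pulldowns against the resting inputs of both baits, 0 members were higher and 1 was lower, beside 14.8% and 16.2% of all genes, and the median was 0.03. The member was Pcdh1, with 76.0, 84.5 and 94.6 CPM per kb in pulldowns and 102 to 137 in inputs (−0.53, SE 0.191, FDR 0.0358), a call that was lost when any of the replicates was left out. The call was also lost when the transcript with the highest count was used for each gene. After KCl, 1 member was higher and 0 lower, beside 11% and 6.74%: Pcdhgb7, with 33.6, 28.5 and 31.9 CPM per kb in pulldowns and 17.9 to 25.3 in inputs (0.50, SE 0.166, FDR 0.0377), also a call lost with any replicate left out (FDR 0.0602 to 0.401). With the constant segments counted in every alpha and gamma gene, 23 were higher and 1 lower at rest, beside 14.7% and 16.4% of all genes, and 24 higher after KCl, beside 11.2%.

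For Pan-TurboID 0 members were called in edgeR's test, beside 16.6% and 17.1% of all genes. In that test 5 of 67 members had an unadjusted p under 0.05, beside 5748 of 13021 genes. The likelihood ratio test called 2 members and DESeq2 called 3. This comparison set Pan-TurboID pulldowns against their own inputs, as a mean over rest and KCl. Those of TurboID-PSD95 were made per condition against the inputs of both baits. Inputs and pulldowns were split from the same monosome fraction. With the replicate number within a condition, which both baits share, as a block the counts became 4 higher and 3 lower at rest (Pcdh1 −0.53, Pcdh17 −0.39 and Pcdh10 −0.32 lower, Pcdhgb4 0.58, Pcdhga6 0.55, Pcdhga4 0.45 and Pcdha4 0.45 higher), 4 higher after KCl (Pcdh18 0.71, Pcdhgb7 0.50, Pcdh20 0.48 and Pcdh11x 0.40), and 8 higher and 1 lower for Pan-TurboID, where Pcdh10 (−0.31) was lower. Under the block 20% and 22.6% of all genes were higher and lower at rest, 16.9% and 15.9% after KCl and 21.4% and 23.3% for Pan-TurboID. No member had a larger pulldown effect with TurboID-PSD95 than with Pan-TurboID, or a different one after KCl than at rest, in edgeR's test. DESeq2 called 0 in both. An unadjusted p under 0.05 in edgeR's test was seen for 1 and 0 members, beside 169 and 342 of 13021 genes. Of all genes, 0.00768% were called in the former and 0 in the latter.

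**Figure D4:**
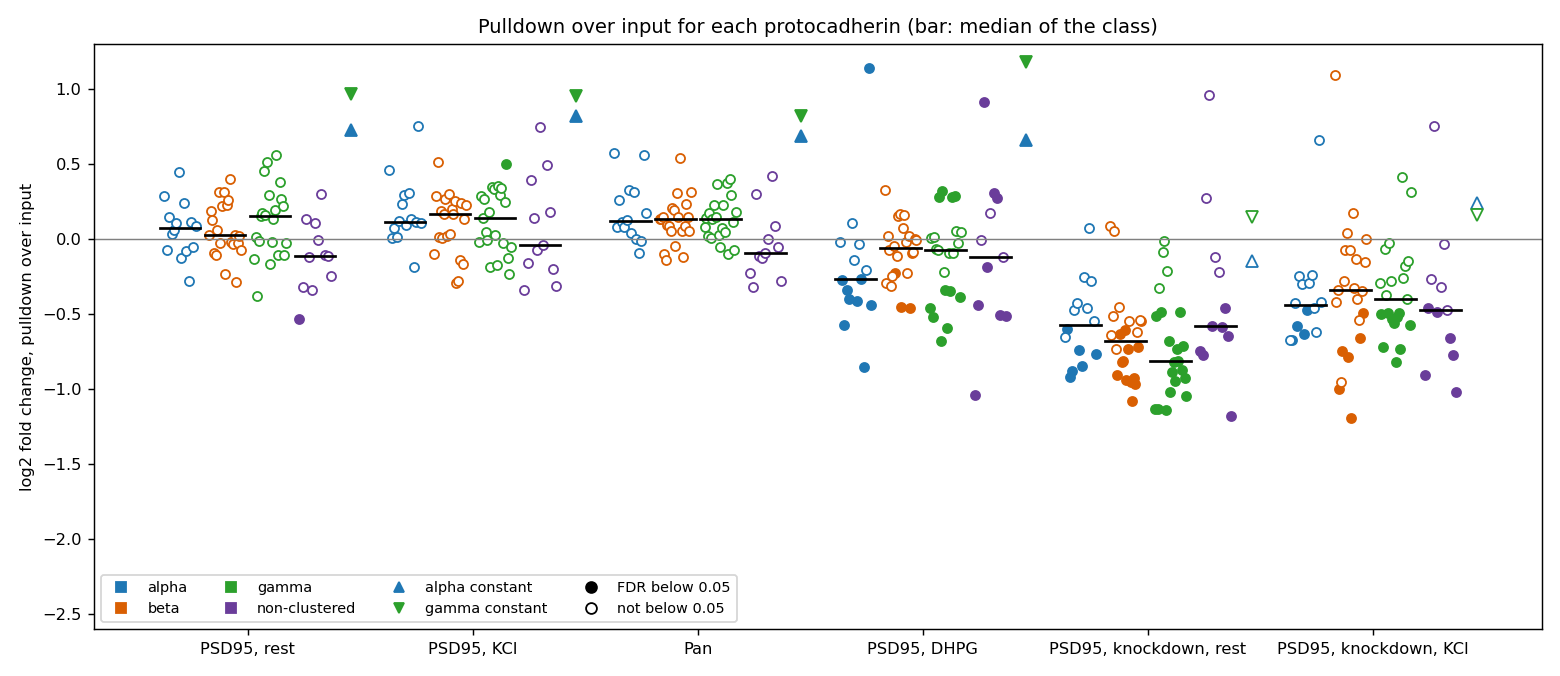
Log2 fold change of pulldown over input for each protocadherin in 6 comparisons, grouped by cluster, with the constant segments of alpha and gamma as triangles; filled symbols have an FDR below 0.05 and bars are class medians. Pan is the mean over rest and KCl against its own inputs, and PSD95 at rest and after KCl is set against the inputs of both baits. Members lie near 0 in the KCl experiment, the constant segments lie above it, and nearly all members lie below 0 in the knockdown.

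At rest in the knockdown 43 of 68 were lower and 0 higher, 63.2% and 0%, beside 23.5% and 22.2% of all genes, with a median of −0.65. They were 6 of 14 alpha, 13 of 22 beta, 17 of 21 gamma and 7 of 11 non-clustered genes. Pcdh9 measured 37.9 and 44.0 CPM per kb in inputs and 18.6 and 17.2 in pulldowns (−1.18, SE 0.138, FDR 1.47e-07). Pcdhgc4 measured 91.3 and 89.4 in inputs and 49.0 and 45.2 in pulldowns (−0.93, SE 0.117, FDR 4.61e-07), and Pcdh8 320 and 308 against 194 and 207 (−0.65, SE 0.0768, FDR 1.97e-07). None of these groups overlapped. Marker genes moved as well, since 6 of 8 neuron markers (median −0.78) and 3 of 4 fibroblast markers (median −1.57) were lower, as was 1 of 7 oligodendrocyte markers (median −0.74), 1 of 9 astrocyte markers was higher and 2 were lower (median 0.03), and 3 of 5 progenitor markers were higher (median 0.50). Their part in the values of the members was not tested.

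After KCl 26 of 68 were lower and 0 higher, 38.2% and 0%, beside 24.8% and 24.1% of all genes, with a median of −0.42. Pcdh8 (−0.77, SE 0.0778, FDR 9.63e-09), Pcdh9 (−1.02, SE 0.144, FDR 1.96e-06) and Pcdh1 (−0.91, SE 0.149, FDR 1.6e-05) had the smallest p. With 1 library left out, 31 to 49 members were lower at rest, beside 16.4% to 24.7% of all genes. After KCl 14 to 32 were lower, and the lowest counts were 17 without replicate 1 of the depolarized inputs, beside 19.4% of all genes, and 14 of 68 without their replicate 2, beside 19%, a share near that of all genes. With the constant segments counted in every alpha and gamma gene, 27 and 12 were lower at rest and after KCl, beside 23.4% and 24.8% of all genes, and with a trend on CDS length removed 57 and 49, beside 16.7% and 17.6%. After KCl 4 of 8 neuron markers were lower and 1 higher (median −0.40), 2 of 4 fibroblast (median −1.65), 2 of 7 oligodendrocyte (median −0.999) and 1 of 3 microglial markers (median −1.50) were lower, 3 of 9 astrocyte markers were higher and 3 lower (median 0.04), and 3 of 5 progenitor markers were higher (median 0.47).

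These changes were tested against those of the untreated neurons in comparisons chosen after seeing the data. At rest the pulldown effect was lower in the knockdown for 1 member, Pcdhgb7 (difference −1.18, SE 0.291, FDR 0.0469), beside 0.0227% of all genes lower and 0.993% higher. The median over members was −0.85, beside −0.13 over all genes. In edgeR's test 31 of 68 members had an unadjusted p under 0.05, beside 1085 of 13194 genes. The call was lost with any replicate left out (FDR 0.227 to 1). Pcdhgb7 measured 28.7 and 29.5 CPM per kb in inputs and 15.2 and 16.7 in pulldowns of the knockdown, and 19.4, 17.7 and 19.1 against 22.2, 24.1 and 22.2 in untreated neurons. With the replicate number within each condition and experiment as a block 14 members were lower, beside 1.01% of all genes, among them Pcdha4 (−1.24), Pcdha12 (−0.99) and Pcdhgc3 (−0.95). After KCl 0 members were called by edgeR, beside 0.0758% of all genes higher and 0.00758% lower, and 0 by DESeq2. In edgeR's test 17 members had an unadjusted p under 0.05, beside 1246 of 13194 genes. The median was −0.59, beside −0.08 over all genes.

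DHPG pulldowns differed from their inputs in both directions, with 8 members higher and 23 lower of 68, 11.8% and 33.8%, beside 40.5% and 39.3% of all genes, and with a median of −0.09. Without replicate 1 and without replicate 2, 5 were higher and 19 lower in each case, beside 36.3% and 36.5% and 36.6% and 36% of all genes, and without replicate 3, 6 were higher and 33 lower, beside 38.7% and 39.2%. Pcdh1 measured 207, 193 and 182 CPM per kb in inputs and 81.6, 95.5 and 105 in pulldowns (−1.04, SE 0.0827, FDR 1.53e-09). Pcdh7 (−0.51) and Pcdha8 (−0.85) were also lower. Pcdh15 was higher, with 1.07, 1.28 and 1.43 against 2.57, 2.29 and 2.26 CPM per kb (0.91, SE 0.176, FDR 0.000118), as were Pcdhac1 (1.14, FDR 0.00022) and Pcdh19 (0.31, FDR 0.000347), with 38.9, 42.1 and 39.9 against 48.5, 50.6 and 50.3. The groups of these genes did not overlap. These directions depended on the counting. With a trend on CDS length removed 1 member was higher and 60 were lower, beside 34.6% and 33% of all genes, and Pcdh19 turned to −0.39 (FDR 3.69e-05), and with the constant segments counted in every alpha and gamma gene 38 were higher and 9 lower, beside 40.5% and 39.3%, and Pcdha8 turned to 0.45. Of the markers, 1 of 8 neuronal ones was higher and 5 were lower (median −1.13), 3 of 8 astrocyte markers were higher and 1 lower (median 0.32), 1 of 6 oligodendrocyte markers was higher and 3 were lower (median −1.01), and 2 of 4 progenitor markers were higher and 1 lower (median 0.79). Their part in the values of the members was not tested. Against the resting TurboID-PSD95 pulldown effect, a comparison chosen after seeing the data, 2 members were lower and 0 higher, Pcdha4 (−0.60, SE 0.157, FDR 0.0298) and Pcdhga9 (−0.67, SE 0.193, FDR 0.0451), beside 4.21% and 2.62% of all genes. Both calls were lost with any replicate left out (FDR 0.110 to 0.265 and 0.0861 to 0.366), and with the replicate number within each condition as a block 9 were lower and 1 higher, beside 8.66% and 5.52%. In this comparison 4 of 8 neuron markers were lower (median −0.59).

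DHPG inputs were set against resting TurboID-PSD95 inputs of the KCl experiment, so that experiment and treatment cannot be told apart. Of 68 members 13 were higher and 5 lower, beside 16.1% and 16.5% of all genes. The 5 were all non-clustered. Pcdh20 measured 8.77, 9.36 and 7.89 CPM per kb (−1.19, SE 0.152, FDR 2.51e-05), Pcdh18 5.07, 5.26 and 4.81 against 10.3, 19.2 and 13.5 (−1.54, SE 0.227, FDR 9.54e-05), and Pcdh10 61.0, 60.0 and 60.6 against 89.3, 136 and 146 (−1.07, SE 0.172, FDR 0.000241). Pcdh9 (−1.10) and Pcdh15 (−1.53) were lower as well. Pcdhb9 was the member with the largest rise, with 29.3, 32.0 and 30.5 against 12.6, 9.85 and 16.2 (1.21, SE 0.158, FDR 2.95e-05), followed in p by Pcdh1 (0.66, SE 0.127, FDR 0.000899) and Pcdhb5 (0.77, SE 0.15, FDR 0.000964). Pcdhac2 was higher (0.46, SE 0.152, FDR 0.0294), where KCl lowered it, but the call was lost with any replicate left out (FDR 0.0659 to 0.130). Without replicate 1 the counts were 5 higher and 5 lower, beside 11.6% and 11.3% of all genes.

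In pulldowns 4 members were higher and 13 lower against resting pulldowns, beside 21.6% and 26% of all genes, with Pcdh20 (−1.41), Pcdh10 (−1.32) and Pcdh18 (−1.61) lower and Pcdhb9 (1.2003) higher at the smallest p. With a replicate left out 7 to 10 were lower and 2 to 5 higher, with 10 lower without replicate 1 or 3, beside 18.7% and 21.9% of all genes, and 7 without replicate 2, beside 16.3%. In these fits 32.3% to 39.8% of all genes were called in either direction, against 47.6% with all replicates. Markers of other cell types moved with these comparisons: in DHPG against resting inputs 8 of 9 astrocyte markers tested were lower (median −2.48) and 6 of 6 progenitor markers (median −2.50), 3 of 4 fibroblast markers (median −4.34) and 5 of 7 oligodendrocyte markers (median −3.33), while 3 of 8 neuron markers were higher (median −0.04). In pulldowns 9 of 9 astrocyte and 6 of 6 progenitor markers were lower (medians −2.39 and −1.91), as were 3 of 4 fibroblast and 5 of 7 oligodendrocyte markers (medians −4.87 and −3.44), and 2 of 8 neuron markers were higher and 5 lower (median −0.47). Their part in the differences of Pcdh18, Pcdh15, Pcdh9 and the others was not tested.

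The constant segments of both clusters were higher in pulldowns than in inputs of the KCl experiment. The alpha constant region (459 nt of CDS in 3 segments) was higher in resting dendritic pulldowns by 0.73 (SE 0.239, FDR 0.0233) and the gamma constant region (375 nt in 3 segments), whose protein part binds and inhibits focal adhesion kinases, by 0.97 (SE 0.228, FDR 0.00348). After KCl the differences were 0.82 (FDR 0.0205) and 0.95 (FDR 0.00749), and levels in pulldowns and inputs overlapped for both regions, unlike at rest. In Pan-TurboID, as a mean over both conditions, they were 0.69 (FDR 0.00998) and 0.82 (FDR 0.00252), and after DHPG 0.66 (SE 0.073, FDR 1.49e-07) and 1.18 (SE 0.0713, FDR 3.67e-11). In the knockdown they were −0.14 and 0.15 at rest and 0.24 and 0.16 after KCl, and were not called. The calls at rest were lost without replicate 3 (FDR 0.184 for alpha and 0.0977 for gamma), and that of alpha also without replicate 2 (FDR 0.101). After KCl, 1 of the 3 alpha and 2 of the 3 gamma calls remained with a replicate left out, as in Pan-TurboID. Within the knockdown the gamma region rose after KCl by 0.38 (FDR 0.0163) in inputs and 0.39 (FDR 0.0156) in pulldowns. It was higher in knockdown than in untreated inputs, by 0.99 (FDR 0.0353) at rest and 1.25 (FDR 0.00736) after KCl, where experiment and knockdown cannot be told apart. The alpha region was not called in any of these.

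The density of footprints on constant segments was set against the summed density on the variable segments of the cluster's members, a ratio in which library depth cancels. The gamma constant segments are shared by 22 isoforms, of which Pcdhgb8 is not a member and was not in the sum. In the gamma cluster this ratio was 0.393 to 0.608 in resting TurboID-PSD95 inputs and 0.934 to 1.03 in their pulldowns, and after DHPG 0.630 to 0.684 and 1.58 to 1.65. In the alpha cluster it was 0.481 to 0.614 and 0.840 to 1.01 at rest, and 0.632 to 0.723 and 1.28 to 1.34 after DHPG. Inputs and pulldowns did not overlap in either cluster in these conditions. In the knockdown at rest, where the constant segments themselves were not called in pulldown over input, the ratio still went from 0.774 and 0.806 to 1.31 and 1.48 in the gamma and from 0.593 and 0.603 to 0.794 and 0.907 in the alpha cluster.

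The same measure was taken in genes whose first and later CDS segments belong to 1 transcript, in a comparison chosen after seeing the data. In 7 non-clustered members with a first segment of at least 1000 nt, the log2 ratio of later over first segments was higher in pulldowns than in inputs for 7 of 7 in every condition except the resting knockdown, where Pcdh7 was at −0.28. The median differences were 0.69 for TurboID-PSD95 at rest, 0.98 after KCl, 1.08 after DHPG, and 0.41 and 1.09 in the knockdown at rest and after KCl. In Pcdh8 the difference was 1.16 at rest, in Pcdh10 0.96 and in Pcdh7 0.49. In 65 other genes with segments of like length the medians ran from 0.70 to 1.24, with 57 to 62 of 65 above 0. The differences of the clusters, 0.75 for alpha and 0.95 for gamma at rest, lay within the range of the 7 members, 0.49 to 1.16.

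**Figure D5:**
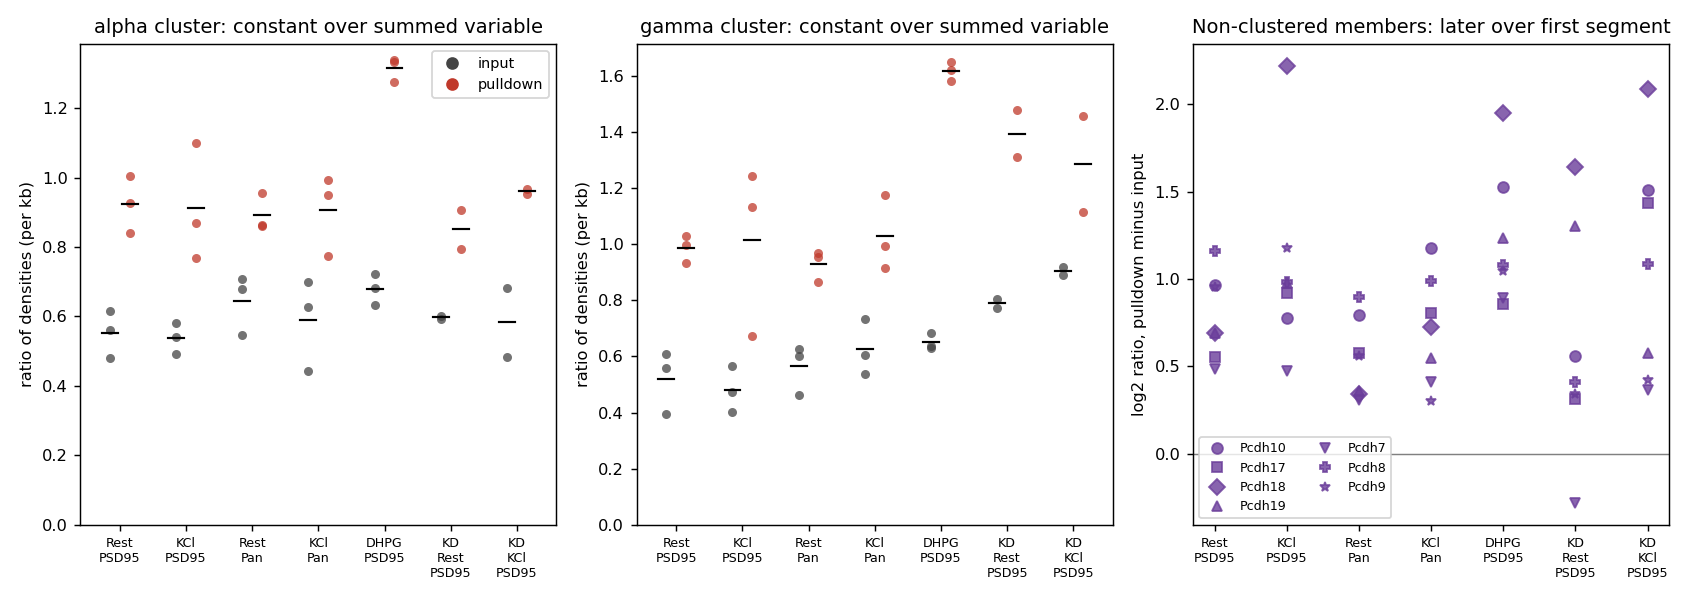
Ratio of footprint density on constant over summed variable segments of the alpha (left) and gamma (middle) cluster in each library, with inputs in grey, pulldowns in red and group means as bars, and the pulldown minus input difference of the log2 ratio of later over first CDS segments in 7 non-clustered members (right). The ratios are higher in pulldowns than in inputs for each bait and condition by their means, and the non-clustered members lie above 0 except Pcdh7 in the resting knockdown.

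Genes that act with protocadherins were described from lists of the pathway, beside which the shares of all genes called are those given above. Of CTCF and cohesin genes, which act in the choice of clustered promoters, 0 of 11 tested were called with KCl in inputs in edgeR's test (median −0.07). In that test 3 had an unadjusted p under 0.05, beside 3771 of 13021 genes, and DESeq2 called 0. Of 13 genes for cytoplasmic partners of protocadherins, 2 rose, Brk1 and Taok2, and 3 fell, Wasf1, Cyfip2 and Nckap1, of which Brk1, Wasf1, Cyfip2 and Nckap1 encode parts of the WAVE complex that drives actin branching. Of 13 classical cadherins tested, 5 fell after KCl in inputs, among them Cdh9 (−1.07) and Cdh10 (−0.95), and 0 rose, and of 9 giant and seven-pass cadherins 2 rose and 1 fell. Of 6 catenins, which tie classical cadherins to actin, 1 fell. In resting dendritic pulldowns 7 of 13 partners were higher and 1 lower (median 0.72), as were 3 and 1 of 11 CTCF and cohesin genes (median 0.32) and 4 and 0 of 9 giant and seven-pass cadherins (median 0.80), while 0 and 3 of 13 classical cadherins (median −0.18) and 0 and 2 of 6 catenins (median −0.27) were called. In the resting knockdown pulldowns 10 of 13 partners were higher and 0 lower (median 0.78), and 7 of 11 CTCF and cohesin genes were higher and 1 lower (median 0.62). There 0 of 13 classical cadherins were higher and 5 lower (median −0.34), 1 of 8 giant and seven-pass cadherins was higher and 3 lower (median −0.07), and 2 of 6 catenins were higher and 3 lower (median −0.34).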

How the data were processed

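Primary cortical neurons were profiled in 38 libraries. The deposited counts, whole numbers of footprint 5′ ends per CDS or UTR segment of UCSC known genes, were made by the authors with plastid after alignment to mm10 with Rsubread; use of strand and treatment of multiple alignments are not given in the sources used here. The deposited RPKM columns were not used.

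From these counts, the longest transcript of each gene was taken, with symbols for 66664 of 67238 coding transcripts (99.1%). CDS counts of 22403 entries entered edgeR 4.0.16 (R 4.3.3; robust quasi-likelihood test, TMM, filterByExpr, Benjamini-Hochberg over all entries, FDR 0.05), in 18 comparisons plus 3 added after seeing the data. The test was also run on simulated data, with an outcome that is not given here. Alternatives were edgeR's likelihood ratio test, which the study names, DESeq2 1.42.0, RLE size factors, no filter, the replicate as a block, whole CDSs, the transcript with the highest count, removal of a CDS length trend, and each replicate left out. The series' design text takes input and pulldown from 1 monosome fraction. In the KCl experiment 12 of 12 pairs of 1 bait and condition had deviations that correlated at 0.357 to 0.706. No such correlation was seen for DHPG (−0.211 to 0.0556) or, with 2 replicates that can hardly show it, the knockdown (0.00899 to 0.0235), where the block gave 31 members called for DHPG pulldown over input and 43 and 26 for the knockdown at rest and after KCl, as without it. Figures and tables used Python 3.11.15 with matplotlib 3.10.9.

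Named genes were all tested non-clustered members, the C-type isoforms, the 3 highest others per cluster and, for each comparison, the called members with the 3 lowest p per direction, plus Eif4g2 and Dlg4; other called members and genes of the related lists were named where a count was small. Members and lists were chosen with earlier results of these data known. Pcdhgb8, annotated as a polymorphic pseudogene, was left out of the members, and so of the gamma variable sums and C-type shares. 3′ UTR counts were used only to choose the longest transcript.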

Additional observations from a re-analysis of the deposited data

Results flagged for a closer look

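Pcdhgb7 had a pulldown effect at rest that was lower in the knockdown than in untreated neurons by −1.18 (log2) in edgeR's interaction test. After DHPG the pulldown effect was lower than at rest for Pcdha4, by −0.60, and for Pcdhga9, by −0.67, by the same test. Each of these calls was lost with any replicate left out. The samples compared come from different experiments, so experiment and treatment cannot be told apart. Outside the comparisons, Pcdhgb8, which the annotation lists as a polymorphic pseudogene, had up to 349 counts in 1 library. No group held 4 or more samples, so single samples far from their group were not searched for.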

How the results depend on the processing

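Depth limits the low members, since Pcdh12 never passed the filter and Pcdhac1, Pcdhb1 and Pcdh15 rested on few counts, and 2 libraries per group limit the knockdown. Alternatives were run for 161 member results, and 57 stayed past the FDR under every alternative. Constant segments have no entry of their own when whole CDSs are counted. Their values with a length trend removed are not given here.

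The number of members called moved by more than 1.5 times as follows. With whole CDSs of alpha and gamma genes, in which constant segments count in every isoform, it was 4 for the KCl response in inputs (12 as reported), 3 in Pan-TurboID pulldowns (5), 24 in the resting (1) and 24 in the depolarized dendritic comparison (1), 31 for Pan-TurboID over input (0), 47 for DHPG over input (31), 44 for DHPG against resting inputs (18) and 33 for pulldowns (17), 27 and 12 for knockdown pulldown over input at rest (43) and after KCl (26), 24 and 32 for KCl in knockdown inputs (6) and pulldowns (21), 11 and 23 for knockdown against untreated inputs at rest (1) and after KCl (8), and 0 for both added differences with calls (1 and 2), while the share of all genes called in either direction moved by at most 0.405 percentage points. With a CDS length trend removed it was 3 at rest, 0 after KCl, 3 for Pan-TurboID, 61 for DHPG, with 60 lower, and 49 for the depolarized knockdown, beside 19.8%, 10.6%, 21.4%, 67.6% and 35.2% of all genes (31%, 17.7%, 33.8%, 79.7% and 49% as reported). DESeq2 gave 19 for KCl in inputs, 8 in Pan-TurboID pulldowns, 2 and 3 for the resting dendritic and Pan-TurboID comparisons, 8 for the resting knockdown against untreated inputs, and 2 and 4 for the added differences at rest and for DHPG, beside 20.7%, 8.95%, 37.5%, 38.4%, 8.41%, 2.18% and 12.1% of all genes (15.4%, 5.05%, 31%, 33.8%, 3.87%, 1.02% and 6.83% as reported). The likelihood ratio test gave 2 for Pan-TurboID, 6 for the resting knockdown against untreated inputs, and 2 and 4 for the added differences, beside 37.4%, 5.96%, 1.39% and 9.25%. The replicate block (the number within a condition for pulldown over input, across conditions otherwise) gave 7, 4 and 9 for the resting, depolarized and Pan-TurboID comparisons, 2 for the resting knockdown against untreated inputs, and 14 and 10 for the added differences, and changed no other count by over 1.5 times. Without the filter it was 0 after KCl in the dendritic comparison, 3 for the resting knockdown against untreated inputs, and 0 and 1 for the added differences. RLE size factors gave 0 for the added difference at rest. The transcript with the highest count gave 0 for the resting dendritic comparison, where the call of Pcdh1 was lost. Shares of all genes are not given for these settings, for no filter, or for the resting knockdown against untreated inputs under the block. Those member counts can therefore not be read against all genes.

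With replicates left out in turn, the counts ran from 5 to 9 for KCl in inputs, 1 to 5 in TurboID-PSD95 and 1 to 2 in Pan-TurboID pulldowns, 0 to 1 in the resting and 0 to 1 in the depolarized dendritic comparison, 0 to 2 for Pan-TurboID over input, 24 to 39 for DHPG over input, 10 to 21 for DHPG against resting inputs and 12 in each case for pulldowns, 14 to 32 for depolarized knockdown pulldown over input, 3 to 8 and 10 to 20 for KCl in knockdown inputs and pulldowns, 0 to 1 and 0 to 6 for knockdown against untreated inputs at rest and after KCl, and 0 in each case for the added differences at rest and for DHPG. The shares of all genes called moved as well, in the same order from 4.1% to 16.3%, 0.742% to 11.2%, 0.591% to 5.6%, 0.136% to 27.5%, 0.129% to 22.6%, 9.92% to 28.6%, 72.6% to 77.9%, 19.1% to 22.9%, 32.3% to 39.8%, 37.1% to 50.4%, 9.48% to 21.8%, 16.7% to 20.3%, 0.015% to 1.28%, 0.0752% to 4.94%, 0.0301% to 0.702% and 0.285% to 1.65%.

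The direction reversed in 23 values. With whole CDSs, DHPG over input was 0.34 for Pcdha10, 0.16 for Pcdha12, 0.27 for Pcdha5, 0.45 for Pcdha8, 0.15 for Pcdhac2, 0.77 for Pcdhga1, 0.89 for Pcdhga8, 0.79 for Pcdhga9 and 0.40 for Pcdhgc4; DHPG against resting pulldowns was 0.0847 for Pcdha4 and 0.23 for Pcdhgc3; knockdown over input was 0.00367 for Pcdhga10, 0.00624 for Pcdhga8, 0.0106 for Pcdhgb6 and 0.0681 for Pcdhgc5 at rest and 0.0079 for Pcdhga10, 0.000749 for Pcdhga3, 0.0125 for Pcdhga8 and 0.0307 for Pcdhga9 after KCl; and depolarized knockdown against untreated inputs was 0.81 for Pcdhgc5. With a length trend removed, DHPG over input was −0.18 for Pcdhgb6, −0.39 for Pcdh19 and −0.31 for Pcdh20. Whole CDSs add the same constant counts to every isoform of a cluster; for the others the cause was not tested.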

Other observations

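The 5′ UTR of Pcdhac2 did not follow its CDS. These values are CPM of the 5′ UTR of the counted transcript, scaled by the CDS library sizes, and were not tested. In Pcdhac2 (466 nt of 5′ UTR), whose CDS fell after KCl, the 5′ UTR measured 11.6 to 25.3 CPM with a median of 18.0 in the 6 resting untreated inputs and 19.3 to 26.8 with a median of 23.8 in the 6 depolarized ones, so that the ranges overlapped and the median was not lower. In knockdown inputs, where its CDS also fell, the 5′ UTR of Pcdhac2 measured 4.58 to 7.16 CPM at rest. After KCl it was higher there, at 9.57 to 13.1, without overlap. The values of other members below are from untreated inputs. In Pcdh1, whose CDS rose, the 5′ UTR measured 49.2 to 83.9 CPM in resting and 113 to 142 in depolarized TurboID-PSD95 inputs and 63.0 to 72.4 and 81.8 to 120 in Pan-TurboID inputs, without overlap within either bait. In Pcdh9 it measured 36.7 to 47.6 CPM in resting and 59.2 to 68.5 in depolarized TurboID-PSD95 inputs, without overlap, and 27.7 to 46.7 and 26.3 to 76.4 in Pan-TurboID inputs, with overlap. The medians of other members, whose ranges overlapped over both baits, went from 58.1 to 84.3 CPM in Pcdh8, from 44.6 to 49.1 in Pcdh10, from 57.4 to 57.1 in Pcdh7, from 85.5 to 75.5 in Pcdh17 and from 41.3 to 35.3 in Pcdh19. Footprints were counted by their 5′ ends without an offset, so those of ribosomes on the first codons are counted in the 5′ UTR.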
